A study of Homo sapiens with 12 samples.

Results

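The epithelial chemokines examined here were 9 genes taken by symbol from a table of 23459 gene IDs: CXCL1, CXCL2, CXCL3, CXCL5, CXCL6, CXCL8, CCL20, CXCL16 and CX3CL1. All 9 had a row, and 7 of them passed a filter on low counts, CXCL6 and CX3CL1 being the exceptions. The RNA came from MCF10A, a non-tumorigenic human mammary epithelial cell line, in which a doxycycline-inducible YAP5SA allele had been placed by lentiviral infection. YAP, a coactivator of transcription, is held in check by the Hippo kinases, and YAP5SA lacks the sites at which they act. These cells carried in addition either a JUN overexpression vector or the empty vector, and received doxycycline (Dox, 100 ng/ml, 16 h) or its solvent ethanol (EtOH). The design thus had 4 groups of 3 libraries each: vector EtOH and JUN EtOH without induction, vector Dox and JUN Dox with it. All of them, controls included, carried the inducible YAP5SA allele and grew in medium with EGF, insulin, hydrocortisone, cholera toxin and horse serum. JUN is a subunit of the transcription factor AP-1, and the comparisons address how JUN alters gene expression with and without active YAP. The study's methods call the libraries of a condition biological replicates and do not say whether these were separate cultures, so p-values measure the spread between these libraries, whatever its source.

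Chemokines are small secreted proteins that direct the migration of cells carrying the matching receptor. CXCL1, CXCL2, CXCL3, CXCL5, CXCL6 and CXCL8 bind CXCR1 or CXCR2 and attract neutrophils, and their genes lie together on chromosome 4. CCL20 attracts cells with CCR6, such as immature dendritic cells and Th17 cells. CXCL16 and CX3CL1 differ from the rest in being made as membrane-anchored proteins with a chemokine domain on a mucin-like stalk, which ADAM10 and ADAM17 can shed, and their receptors are CXCR6 and CX3CR1. Epithelial cells are known to raise the secreted members in response to interleukin 1 and TNF through NF-kappaB and AP-1.

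The 150 bases upstream of the transcription start are shown for the members with an entry in the RefSeq promoter table (GRCh38.p14), because the 6 CXC genes shown hold a rare sequence element there, CXCL6 included, which had almost no counts, while CCL20 lacks it. They lie at chr4:73869243-73869392 (plus strand) for CXCL1, chr4:74099196-74099345 (minus) for CXCL2, chr4:74038690-74038839 (minus) for CXCL3, chr4:73998678-73998827 (minus) for CXCL5, chr4:73836528-73836677 (plus) for CXCL6, chr4:73740419-73740568 (plus) for CXCL8 and chr2:227813692-227813841 (plus) for CCL20. Entries matched for these 7 of the 9 members and not for CXCL16 and CX3CL1. Each is written 5′ to 3′ and ends at the base before the start. Capitals mark matches to the NF-kappaB core GGAATTTCC, the AP-1 motif TGANTCA and the TATA box TATAAA.
CXCL1: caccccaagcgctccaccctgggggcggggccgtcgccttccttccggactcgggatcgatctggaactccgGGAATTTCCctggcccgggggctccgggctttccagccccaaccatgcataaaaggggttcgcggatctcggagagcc
CXCL2: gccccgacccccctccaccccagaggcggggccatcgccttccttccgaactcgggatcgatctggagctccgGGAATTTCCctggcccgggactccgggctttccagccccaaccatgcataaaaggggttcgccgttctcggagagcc
CXCL3: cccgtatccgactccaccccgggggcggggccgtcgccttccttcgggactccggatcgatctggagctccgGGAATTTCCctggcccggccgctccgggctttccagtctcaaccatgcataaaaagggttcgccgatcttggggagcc
CXCL5: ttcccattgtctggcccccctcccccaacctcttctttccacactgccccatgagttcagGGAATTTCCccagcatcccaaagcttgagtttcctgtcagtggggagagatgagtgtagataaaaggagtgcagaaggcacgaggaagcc
CXCL6: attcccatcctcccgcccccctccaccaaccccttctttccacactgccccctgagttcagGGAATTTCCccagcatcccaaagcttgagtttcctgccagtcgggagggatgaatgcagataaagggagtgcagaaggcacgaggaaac
CXCL8: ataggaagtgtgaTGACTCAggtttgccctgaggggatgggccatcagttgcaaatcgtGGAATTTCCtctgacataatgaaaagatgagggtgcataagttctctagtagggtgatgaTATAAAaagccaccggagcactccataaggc
CCL20: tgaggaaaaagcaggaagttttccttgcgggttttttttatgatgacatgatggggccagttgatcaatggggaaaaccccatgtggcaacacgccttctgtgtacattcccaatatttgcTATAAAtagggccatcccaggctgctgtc
In the 250 bases upstream, searched on both strands, the NF-kappaB core occurred once in each of the 6 CXC genes shown and in 0.428% of all 27305 promoters in the table. Its first base lay 78 bases before the start in CXCL1 and CXCL3, 77 in CXCL2, 90 in CXCL5, 89 in CXCL6 and 91 in CXCL8. CCL20 lacked this core. It held 1 match to the wider NF-kappaB consensus (known as the kappaB consensus, 11.9% of promoters), 79 bases before its start. An AP-1 motif was found in CXCL8 alone among the 7, 137 bases before the start, against 6.6% of all promoters, and only 10 promoters (0.0366%) held both this motif and the NF-kappaB core. The TEAD motif GGAATG, the motif bound by the DNA-binding partners of YAP, was found in CCL20 alone, on the minus strand 45 bases before the start, against 11.9% of promoters. TATAAA stood 31 bases before the start in CXCL8 and 29 in CCL20, against 11.1% of promoters. The upstream sequences of CXCL5 and CXCL6 were 90% identical without gaps and those of CXCL1 and CXCL3 86%. A match is a run of letters and was not tested for binding.

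Total counts per library ranged from 18594867 to 28993487. Expression is given in CPM, the count scaled to the TMM-adjusted size of its library, with the mean ± SD over 3 libraries, and 3 counts, the floor used for detection, equalled 0.107 to 0.15 CPM. JUN itself was at 47.6 ± 10.5 CPM with EtOH and 189.7 ± 4.15 with Dox in vector cells, and at 1279 ± 187 and 1248 ± 92.3 in JUN cells, reads from vector and endogenous gene being counted together. YAP1 reads, endogenous and YAP5SA together, were at 179.4 ± 10.5 and 236.5 ± 31.5 CPM in vector cells and 234.4 ± 20.9 and 279.9 ± 79.3 in JUN cells, and no difference in YAP1 passed the test (edgeR quasi-likelihood, adjusted p 0.0755 or above). All 8 mammary epithelial markers were detected, with a summed level of 8022 to 8240 CPM (EtOH) and 5087 to 5941 (Dox) in vector cells, and 5770 to 7554 (EtOH) and 3494 to 5876 (Dox) in JUN cells. Of 8 leukocyte markers 3 passed the filter, namely CSF1R, CD14 and CD68, while CD3E was at 0 and PTPRC, MS4A1 and FCGR3B had at most 3 counts in any library. The summed leukocyte list lay between 473 and 559 CPM (EtOH) and 415 and 584 (Dox) in vector cells and between 423 and 467 (EtOH) and 369 and 452 (Dox) in JUN cells. Of 7 fibroblast markers 5 passed the filter, with sums of 111 to 162 CPM, and of 5 endothelial markers 2, with sums of 0.782 to 2.93 CPM. CSF1R and PDGFRA carry the leukocyte and fibroblast sums, and single markers, named after their values were seen, also moved with JUN. Without induction LUM went from 0.732 ± 0.446 to 6.10 ± 0.819 CPM (log2 3.09, edgeR adjusted p 1.69e-06), DCN from 5.97 ± 1.93 to 17.7 ± 5.53 (1.56, 0.00103) and CD68 from 28.9 ± 0.978 to 84.8 ± 7.85 (1.55, 2.29e-07), while CD14 fell (-1.41, 0.000109). Of the epithelial markers KRT14 and TP63 rose, and EPCAM (log2 -1.76, edgeR adjusted p 5.83e-08), KRT8 (-0.79, 0.00193) and KRT18 (-0.90, 0.00111) fell. With induction these 9 markers were called in the same directions. The part of other cells in the chemokine levels was not tested beyond these values.

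CXCL1, CXCL2, CXCL3 and CXCL8 rose with JUN overexpression in all 3 libraries of each JUN group, and CXCL1 was the most abundant of the 9 in every library. CXCL1 (Entrez gene 2919, GRCh37 chromosome 4, 74735110 to 74737025, plus strand), also known as GRO-alpha, had 72.2, 42.5 and 42.1 CPM in the vector EtOH libraries and 286.2, 158.8 and 116.5 with Dox. In JUN cells it had 1168, 859 and 676 CPM without induction and 1938, 1482 and 1217 with it. The groups followed each other in this order and no neighbours overlapped. The JUN vector raised CXCL1 by 4.11 on the log2 scale without induction (SE 0.34, edgeR adjusted p 4.75e-07), a 17.2-fold difference.

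CXCL8 (Entrez gene 3576, chromosome 4, 74606236 to 74609433, plus strand) encodes interleukin 8, the prototype neutrophil attractant. Vector cells had 26.2, 19.5 and 16.5 CPM with EtOH and 40.1, 33.4 and 30.1 with Dox. JUN cells had 442.8, 314.3 and 298.6 CPM with EtOH and 491.8, 465.3 and 384.5 with Dox. All JUN libraries lay above all vector libraries, and the 2 JUN groups overlapped. CXCL8 was 16.9-fold higher with JUN in the absence of induction (log2 4.08, SE 0.20, edgeR adjusted p 2.82e-09) and 12.9-fold higher in its presence (log2 3.69, SE 0.20, edgeR adjusted p 5.90e-09).

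CXCL3 (Entrez gene 2921, chromosome 4, 74902306 to 74904524, minus strand), or GRO-gamma, was the lowest of these 4 in vector EtOH and had the largest fold change of the 4. Its values in vector cells were 4.41, 2.59 and 2.24 CPM with EtOH and 11.7, 6.44 and 5.16 with Dox. In JUN cells they were 209.8, 141.5 and 108.7 CPM with EtOH and 419.2, 276.3 and 247.6 with Dox. No neighbouring groups overlapped. JUN raised it 48.9-fold without induction (log2 5.61, SE 0.37, edgeR adjusted p 4.89e-08) and 40.4-fold with it (log2 5.34, SE 0.35, edgeR adjusted p 3.86e-08).

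CXCL2 (Entrez gene 2920, chromosome 4, 74962757 to 74964913, minus strand), or GRO-beta, had 9.73, 7.98 and 5.47 CPM with EtOH and 13.7, 6.49 and 5.87 with Dox in vector cells, groups that overlapped. In JUN cells it had 99.5, 72.8 and 57.8 CPM with EtOH and 255.6, 157.9 and 137.4 with Dox, all above the vector libraries and apart from each other. CXCL2 passed the test for YAP5SA induction in JUN cells and not in vector cells, but the difference between the 2 responses did not pass its own test (log2 1.10, 95% confidence interval 0.147 to 2.05, edgeR adjusted p 0.418).

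CXCL5 and CXCL6 encode closely related attractants and were the scarcest of the 6 CXC genes. CXCL5 (Entrez gene 6374, chromosome 4, 74861359 to 74864394, minus strand) had 0 counts in all 3 vector EtOH libraries and 0, 1 and 0 with Dox. JUN cells had 117, 59 and 50 counts with EtOH and 51, 49 and 35 with Dox, that is 5.15, 2.49 and 2.35 CPM and 2.56, 2.12 and 1.24 CPM. It passed the filter only through the JUN groups, where it is high. Against 3 counts in each vector library, CXCL5 was at least 25.1-fold higher in JUN EtOH than in vector EtOH. The summed 135 counts of JUN Dox against 1 of vector Dox gave a ratio of 131 (95% interval 23.2 to 5229, counting error only). An unnamed antisense lncRNA overlaps CXCL5 in the annotation, and whether the counting used strand was not stated, so its reads cannot be told apart from those of CXCL5. CXCL6 (Entrez gene 6372, chromosome 4, 74702357 to 74714781, plus strand), overlapped by a pseudogene, had at most 2 counts in any library and 4 in all 12, and no difference was detectable at this depth.

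CCL20 (Entrez gene 6364, chromosome 2, 228670455 to 228682280, plus strand) lies apart from the CXC cluster. Vector cells had 18.4, 13.7 and 14.4 CPM with EtOH and 72.2, 43.8 and 44.2 with Dox. JUN cells had 177.2, 128.0 and 109.4 CPM with EtOH and 225.1, 193.3 and 149.3 with Dox. The 2 JUN groups overlapped, and the other neighbours in this order did not. Both manipulations raised it: YAP5SA induction in vector cells by 3.43-fold (log2 1.78, SE 0.23, edgeR adjusted p 3.54e-05) and JUN without induction by 8.89-fold (log2 3.15, SE 0.24, edgeR adjusted p 1.54e-07). CCL20 belongs to the list of top YAP-induced genes that the study drew up in a separate experiment, and that list was then clustered by the study on these libraries.

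The membrane-anchored pair behaved otherwise. CXCL16 (Entrez gene 58191, chromosome 17, 4636828 to 4643223, minus strand) had 28.8, 26.1 and 31.1 CPM with EtOH and 32.6, 37.1 and 35.2 with Dox in vector cells. In JUN cells it had 14.7, 17.2 and 16.9 CPM with EtOH and 12.1, 19.6 and 16.6 with Dox. All JUN libraries lay below all vector libraries. CXCL16 was the only tested member that fell with JUN, to 0.567 of its level without induction (log2 -0.82, SE 0.15, edgeR adjusted p 0.000589) and to 0.462 with it (log2 -1.11, SE 0.15, edgeR adjusted p 3.92e-05). It overlaps MED11 and ZMYND15 on the opposite strand, so its values are uncertain. CX3CL1 (Entrez gene 6376, chromosome 16, 57406389 to 57418956, plus strand), or fractalkine, had at most 4 counts in any library, 7 in all, and 0 in all 6 JUN libraries, and was not tested.

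**Figure D1:**
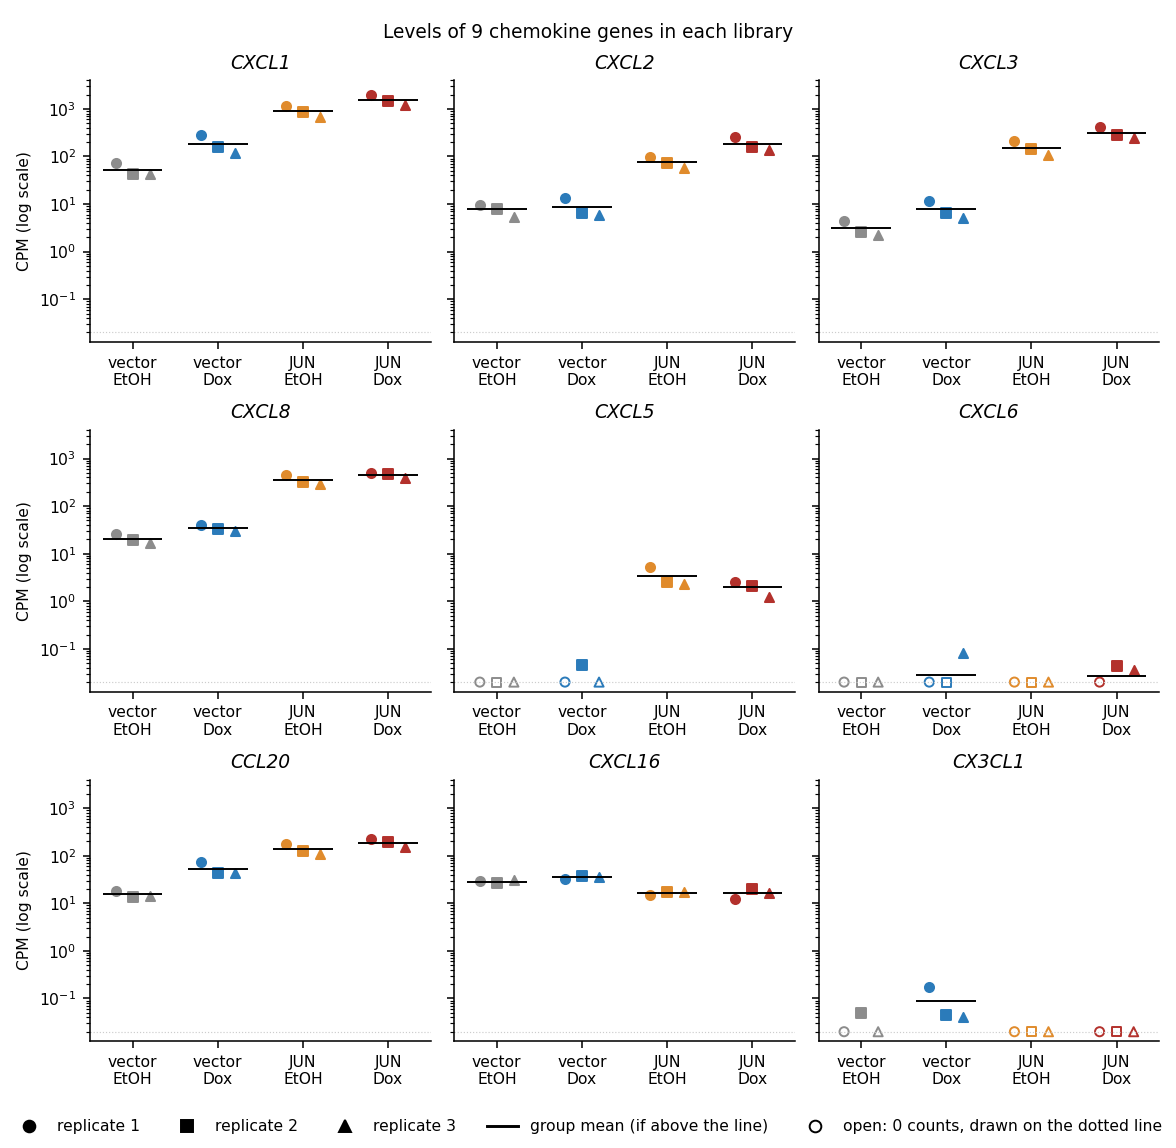
Level of each of the 9 genes in the 12 libraries, in CPM on a log axis, by group, with a marker shape for each replicate number, a line at the group mean where it lies above the dotted line, and open markers for 0 counts. The JUN libraries lie above the vector libraries for CXCL1, CXCL2, CXCL3, CXCL8, CXCL5 and CCL20 and below them for CXCL16, and CXCL6 and CX3CL1 stay near 0.

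CXCL5, which passed the filter through the JUN groups alone and so had to differ, is left out of the counts and medians for JUN given here, though it too was called higher in both comparisons. JUN overexpression without induction changed the other 6 tested members, with 5 increases and 1 decrease, where 39% of all 14775 tested genes were called, 20.1% higher and 18.9% lower. The JUN and vector libraries did not overlap for any of the 6, where 28.9% of all genes were apart in each direction. Their median log2 fold change was 3.69, against 0.00 for all genes tested. Under induction the same 6 genes were called in the same directions, with a median of 3.37 (all genes 0.00), where 35.6% of all genes were called, 18.4% higher and 17.2% lower. Again no groups overlapped, against 22.2% (higher) and 21.2% (lower) of all genes. CXCL2 differed by 21.1-fold (log2 4.40, SE 0.34, edgeR adjusted p 2.22e-07), CXCL1 by 8.26-fold (log2 3.05, SE 0.33, edgeR adjusted p 5.42e-06) and CCL20 by 3.54-fold (log2 1.83, SE 0.22, edgeR adjusted p 1.75e-05). In the absence of induction CXCL2 differed by 9.88-fold (log2 3.30, SE 0.33, edgeR adjusted p 3.09e-06).

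YAP5SA induction in vector cells raised 4 of the 7 tested members and lowered none, where 30.1% of all genes were called, 15.6% higher and 14.4% lower. Dox and EtOH libraries were apart for 5 of the 7, all with Dox higher, where 22.6% of all genes were apart with Dox higher and 21.3% with Dox lower. CXCL1 rose 3.57-fold (log2 1.84, SE 0.31, edgeR adjusted p 0.000444), CCL20 3.43-fold, CXCL3 2.48-fold (log2 1.31, SE 0.37, edgeR adjusted p 0.0140) and CXCL8 1.66-fold (log2 0.73, SE 0.19, edgeR adjusted p 0.00798). CXCL2, with log2 0.16 (95% confidence interval -0.561 to 0.882), CXCL16, with log2 0.29 (-0.0176 to 0.590), and CXCL5, at the floor in both groups, were not called. The median over the 6 without CXCL5 was 1.02 on the log2 scale (all genes 0.01). The CXCL3 call was lost without vector EtOH replicate 2 (edgeR adjusted p 0.0607), vector EtOH replicate 3 (0.0646) or vector Dox replicate 1 (0.131), and that of CXCL8 without vector EtOH replicate 3 (log2 0.59, with a p just over the threshold), which left 2 members called.

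In JUN cells YAP5SA induction raised 2 of the 7, CXCL2 by 2.39-fold (log2 1.26, SE 0.29, edgeR adjusted p 0.00653) and CXCL3 by 2.05-fold (log2 1.04, SE 0.28, edgeR adjusted p 0.0167), where 21.4% of all genes were called, 11.2% higher and 10.3% lower. Libraries were apart for 3 of the 7, all with Dox higher, where 20.4% of all genes were apart with Dox higher and 19% with Dox lower. CXCL1 had 1.72-fold higher levels in groups that did not overlap, but missed the threshold (log2 0.78, 95% confidence interval 0.133 to 1.42, edgeR adjusted p 0.0828). CCL20 (log2 0.45, edgeR adjusted p 0.150), CXCL8 (log2 0.35, 0.191), CXCL16 (log2 -0.01, 0.974) and CXCL5 (log2 -0.77, 0.161) were not called, and their groups overlapped. The CXCL3 call was lost without JUN EtOH replicate 2 (edgeR adjusted p 0.0711), JUN EtOH replicate 3 (0.0755) or JUN Dox replicate 1 (0.0675). CXCL1 was called without vector Dox replicate 1 (edgeR adjusted p 0.0317) and with only the libraries of the comparison in the fit (log2 0.77, 0.0349).

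**Figure D2:**
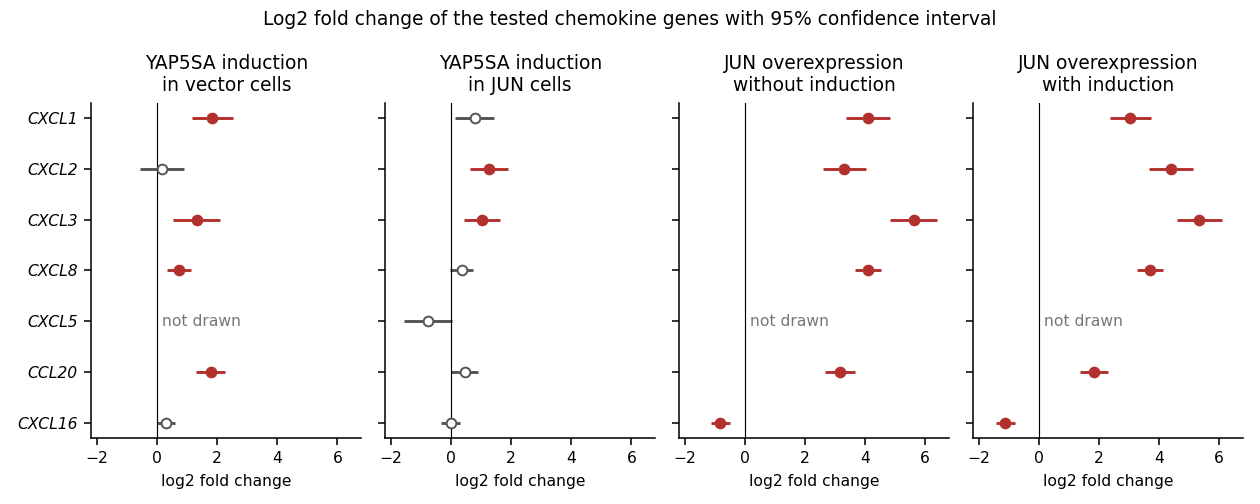
Log2 fold change of the tested members (x axis) in the 4 comparisons, with 95% confidence intervals from the edgeR fit; filled red points passed an adjusted p of 0.05 and open points did not. CXCL5 is drawn only where both groups lie above the detection floor. In both JUN panels the 5 secreted members drawn lie to the right of 0 and CXCL16 to the left, and induction moved 4 members in vector cells and 2 in JUN cells.

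The interaction (the response in JUN cells less the response in vector cells, log2) was called for none of the 7 members by edgeR, where 1.12% of all genes were called, 0.291% higher and 0.826% lower. DESeq2 called 1 of the 7, CCL20, and 358 of all genes. With a replicate block edgeR called 3, namely CCL20, CXCL1 and CXCL2, and 197 of all genes. Whether the replicate numbers pair the libraries is not settled. CCL20 had an interaction of -1.33 (SE 0.31, 95% confidence interval -1.98 to -0.668, edgeR adjusted p 0.0548), its response being 3.43-fold in vector cells and 1.37-fold in JUN cells. It was called without vector Dox replicate 2 (edgeR adjusted p 0.0467), JUN EtOH replicate 3 (0.0378) or JUN Dox replicate 1 (0.0375). CXCL1 had -1.06 (95% confidence interval -1.98 to -0.144, edgeR adjusted p 0.415) and CXCL2 1.10, so the point estimates of these 2 genes of the cluster had opposite signs.

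The make-up of the neutrophil attractants was compared per kilobase of exon, because the transcripts differ in length. In vector cells CXCL1 held 71.7% ± 2.88 (EtOH) and 84.9% ± 2.41 (Dox) of the summed CPM per kb of the 6 CXC genes, and in JUN cells 71.6% ± 0.989 (EtOH) and 71.7% ± 0.455 (Dox; SD, n = 3). The vector Dox libraries lay above all the others. CXCL8 held 15.2% ± 1.25 and 9.02% ± 2.41 in vector cells and 14.9% ± 1.32 and 11.1% ± 1.34 in JUN cells, in the same order. CXCL3 went from 2.57% ± 0.181 and 2.19% ± 0.0626 in the vector groups to 7.40% ± 0.470 and 8.90% ± 0.624 in the JUN groups. The ratio of CXCL3 to CXCL2 per kb was 0.249 ± 0.0411 (EtOH) and 0.573 ± 0.0459 (Dox) in vector cells and 1.25 ± 0.0738 (EtOH) and 1.09 ± 0.0522 (Dox) in JUN cells, where CXCL3 thus lay above CXCL2. No 2 of the groups overlapped in this ratio, and an exact two-sided permutation test of 3 against 3 cannot go below p = 0.1. The summed level of the 6 genes, in CPM, was 83.8 ± 25.1 and 238.2 ± 101.2 in vector cells and 1487 ± 400 and 2493 ± 567 in JUN cells.

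**Figure D3:**
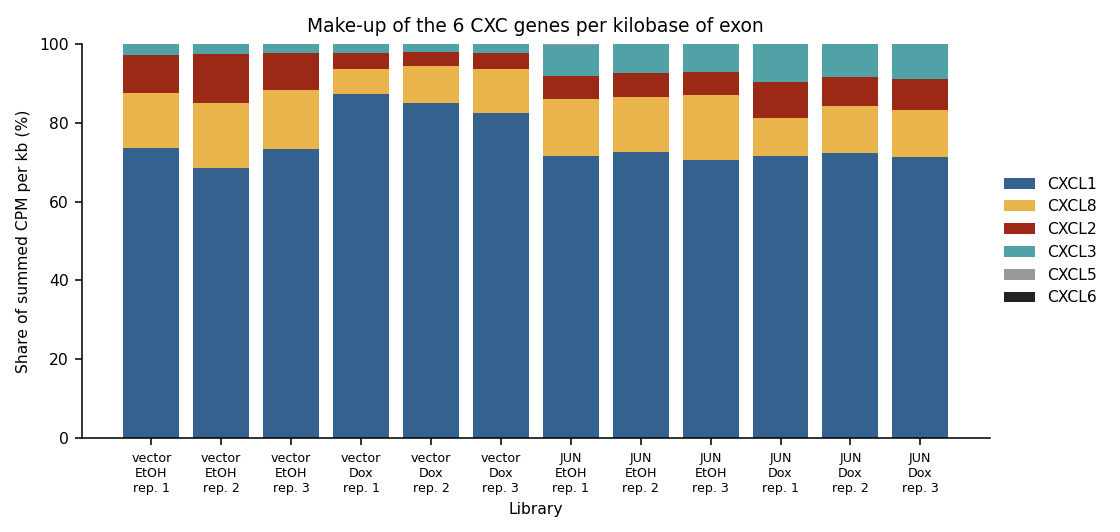
Share of each of the 6 CXC genes (y axis, percent) in their summed CPM per kilobase of exon, 1 bar a library. CXCL1 takes the greater part in every library and its share is highest in vector Dox, while the CXCL3 share is wider in the 6 JUN libraries; CXCL5 and CXCL6 are too small to see.

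Per kb, CXCL1 ranked first of the 9 in every group, at 38.4 ± 12.7 and 137.4 ± 64.9 CPM per kb in vector cells and 661.7 ± 182.5 and 1135 ± 268 in JUN cells. With the longest transcript in place of all exons as the length, CCL20 in JUN Dox stood at 225.6 CPM per kb, next after CXCL1. In vector EtOH it was followed by CXCL16 (10.3 ± 0.896), CCL20 (9.73 ± 1.61) and CXCL8 (8.01 ± 1.91), whose libraries overlapped. Per kb of exon in JUN Dox, CXCL1 was followed by CXCL8 (172.8 ± 21.6), CXCL3 (141.7 ± 41.4), CXCL2 (131.4 ± 45.2) and CCL20 (118.7 ± 23.9), each overlapping the next, while CXCL16 stood at 5.77 ± 1.36 CPM per kb.

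CXCL1, CXCL2 and CXCL3 arose by duplication and their transcripts share stretches of sequence. Of the words of 75 bases, the read length, in the annotated transcripts, 7.56% of CXCL2 also occurred in CXCL3 or CXCL1, 4.57% of CXCL3 in CXCL2 and 0.233% of CXCL1 in CXCL2. No such word of CXCL8, CCL20, CXCL16 or CX3CL1 occurred in another gene. The authors kept trimmed reads over 25 bases, and of the 25-base words 29.7% of CXCL2, 18.6% of CXCL1 and 11.3% of CXCL3 occurred in another gene, as did 7.26% for CXCL5, 6.93% for CXCL16, 0.441% for CCL20 and 0.152% for CXCL8. Reads from such stretches could have been placed on either copy, and their number is not known, so the split among CXCL1, CXCL2 and CXCL3 is uncertain. Summed over CXCL1, CXCL2 and CXCL3, the level was 63.1 ± 20.2 and 203.6 ± 96.1 CPM in vector cells and 1131 ± 321 and 2044 ± 517 in JUN cells.

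Replicate 1 was the highest library in all 4 groups for 5 members, CXCL1, CXCL2, CXCL3, CXCL8 and CCL20, which was so for 387 of all genes tested (2.62%). The libraries also differed in their trend with GC content: over all genes with a known exon GC content, its correlation with the deviation of a library from the group mean was -0.351 in JUN Dox replicate 1 and 0.36 in JUN Dox replicate 3. With a term for this trend, CXCL1 (log2 0.83, edgeR adjusted p 0.0302) and CCL20 (log2 0.49, 0.0410) were called in the response to induction in JUN cells, and the interaction of CCL20 was called (log2 -1.30, 0.0130). What set replicate 1 apart was not tested.

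The 14 other genes with a row within 500 kb of the CXC members on chromosome 4 were examined for the same comparisons. Of the 9 that passed the filter, AFP and PPBP did so only through the JUN groups. Of the other 7, 6 rose and none fell with JUN overexpression without induction, where 20.1% of all genes were called higher, the exception being ANKRD17 at the edge of the region (log2 0.12, edgeR adjusted p 0.614). Their median was 1.89 on the log2 scale, against 3.69 for the 6 members. EREG (log2 2.57, edgeR adjusted p 1.53e-07), EPGN (2.05, 8.95e-08) and AREG (1.89, 7.26e-07), which encode ligands of the EGF receptor, lay beyond CXCL2. PF4 (log2 2.26, edgeR adjusted p 0.000112) rose from a very low level, with at most 41 counts in any library. AFP and PPBP, with at most 24 and 83 counts, had means of 0.0569 and 0.241 CPM in vector EtOH and 0.594 and 2.05 in JUN EtOH. As the JUN groups alone carried them past the filter, their tests with JUN are not given. PPBP and PF4 encode platelet chemokines. RASSF6 (1.44, 0.000104) and MTHFD2L (0.94, 0.000184), which are no cytokine genes, rose less. With induction 5 of the 7 were called higher and none lower (median 1.52), where 18.4% of all genes were called higher, and PF4 was not called (log2 0.52, edgeR adjusted p 0.263). YAP5SA induction in vector cells called 1 of the 7 higher, AREG (log2 1.43, edgeR adjusted p 1.14e-05), and 1 lower, EREG (log2 -1.18, edgeR adjusted p 0.000461). These counts are near the shares of all genes, 15.6% higher and 14.4% lower. Induction in JUN cells called 2 of the 7 higher and 2 lower (11.2% and 10.3% of all genes).

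**Figure D4:**
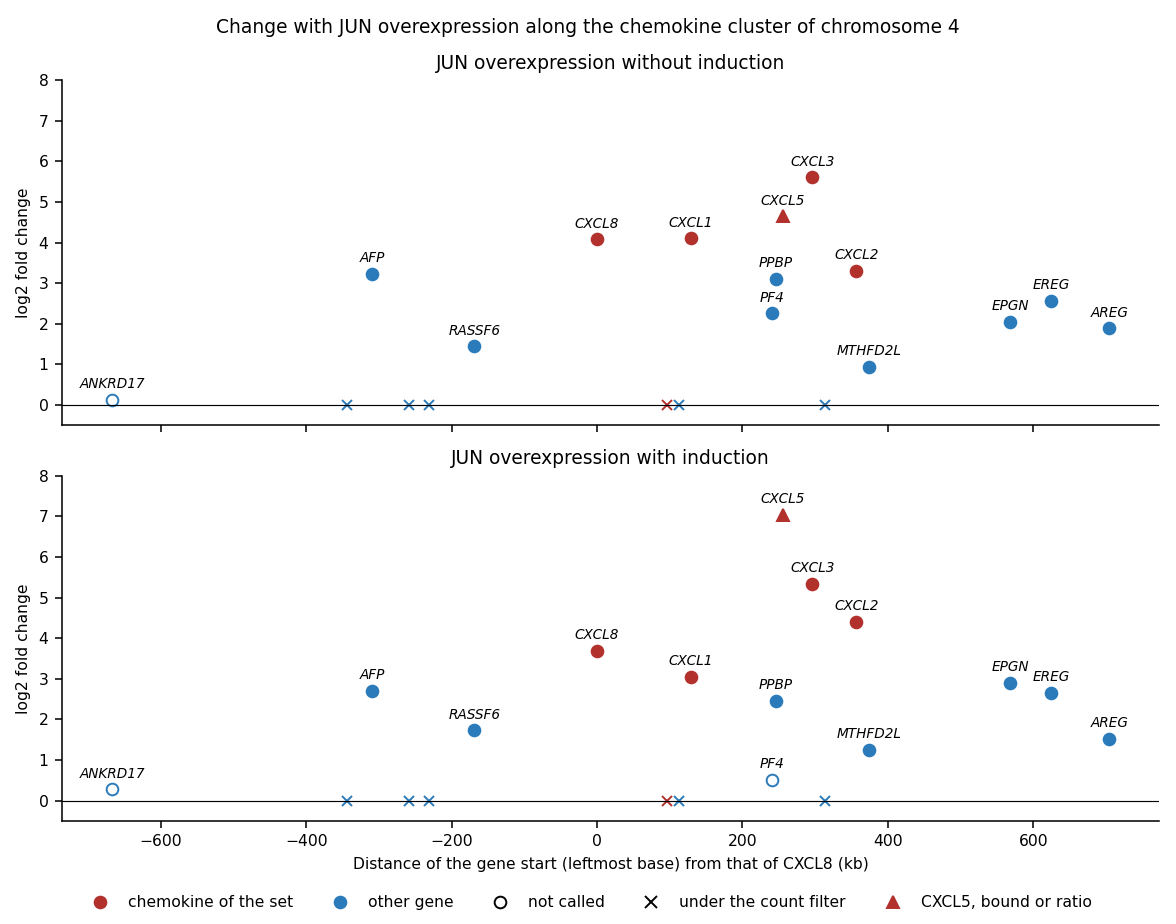
Log2 fold change with JUN overexpression (y axis) of the genes of the chromosome 4 cluster by distance of the gene from CXCL8 (x axis, kb), without induction (top) and with it (bottom). Members are red and other genes blue, open circles were not called, crosses did not pass the count filter, and CXCL5 stands at its lower bound (top) or count ratio (bottom). AFP, PPBP and CXCL5 are filled as called, but passed the filter only through the JUN groups and so had to differ. Apart from these, called genes extend from RASSF6 to AREG, and the members with the larger changes lie among genes with smaller ones.

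Among 39 other chemokine ligands, 38 had a row and 4 passed the filter, PF4, PPBP, CXCL13 and CCL28. Beyond PF4 and PPBP, CXCL13 and CCL28 were not called in any comparison, and CXCL13 had log2 0.27 with JUN (edgeR adjusted p 0.358). The inflammatory ligands CXCL10 and CCL5 had at most 2 and 5 counts in any library, and CCL2 at most 19. These names were chosen after their values were seen.

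CXCR1 and CXCR2, the receptors of the neutrophil attractants, were highest in vector EtOH, where their tested ligands were lowest, and passed the filter only through that group. Between the next 2 groups the order was not inverse, since both receptors and these ligands had higher means in JUN EtOH than in vector Dox. In vector cells CXCR1 had 141, 147 and 82 counts with EtOH (5.46 ± 1.83 CPM) and 4, 2 and 6 with Dox (0.171 ± 0.0789). In JUN cells it had 8, 18 and 12 counts with EtOH (0.558 ± 0.203) and 1, 1 and 5 with Dox. All vector EtOH libraries of CXCR1 lay above all others. As this group alone carried CXCR1 and CXCR2 past the filter, tests against it are not given. CXCR1 was not called for JUN with induction (log2 -0.79, edgeR adjusted p 0.434). Counts of CXCR2 were 62, 29 and 30 with EtOH and 3, 3 and 0 with Dox in vector cells, and 7, 12 and 6 with EtOH and 0, 1 and 0 with Dox in JUN cells. The vector EtOH libraries of CXCR2 likewise lay above all others, and its Dox groups lay at or under the floor. CXCR1 and CXCR2 shared 2.01% and 2.11% of their 75-base words, and 10.3% and 20.3% of their 25-base words, with each other or with related copies. CCR6, the receptor of CCL20, had 14.3 ± 2.29 and 20.5 ± 3.09 CPM in vector cells without and with induction and 17.4 ± 1.53 and 23.8 ± 5.44 in JUN cells. Its rise with induction in vector cells (log2 0.51, edgeR adjusted p 0.0303) was lost without vector EtOH replicate 2 (0.0787), vector EtOH replicate 3 (0.141) or vector Dox replicate 1 (0.110). CXCR6 and CX3CR1, the receptors of the membrane-anchored pair, had at most 10 and 3 counts in any library. Of 23 chemokine receptors 9 passed the filter, of which CXCR1, CXCR2 and CXCR4 did so only through vector EtOH and CCR10 only through the JUN groups. Among the other 5, induction in vector cells called 1 higher and 1 lower (15.6% and 14.4% of all genes), JUN without induction none (20.1% and 18.9%), induction in JUN cells 0 and 1 (11.2% and 10.3%) and JUN with induction 0 and 1 (18.4% and 17.2%).

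The sheddases of the membrane-anchored pair were expressed in all groups. ADAM10 had 79.9 ± 9.03 CPM in vector EtOH and 120.7 ± 15.5 in JUN EtOH (log2 0.60, SE 0.15, edgeR adjusted p 0.00610), and ADAM17 had 32.7 ± 2.09 and 49.4 ± 3.66 (log2 0.59, SE 0.13, edgeR adjusted p 0.00236). Both thus rose with JUN without induction, while their substrate CXCL16 fell. With induction ADAM10 had 84.6 ± 15.8 CPM in vector Dox and 107.5 ± 16.3 in JUN Dox, and these libraries overlapped. ADAM17 had 31.8 ± 5.04 and 44.8 ± 6.46, without overlap. A link to CXCL16 was not tested. Of the 7 genes of the sheddase and protease list 4 passed the filter and JUN without induction called 3 higher and none lower, where 20.1% and 18.9% of all genes were called so, with the highest value for CTSS, which encodes cathepsin S (log2 2.04, edgeR adjusted p 1.06e-05). JUN with induction called 2 higher and 1 lower (18.4% and 17.2% of all genes).

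Interleukins 1 alpha and beta, which induce these chemokines in epithelia, were also higher with JUN. IL1A had 33.2, 28.1 and 26.8 CPM with EtOH and 84.9, 85.9 and 78.4 with Dox in vector cells. It had 367.7, 247.0 and 222.6 CPM with EtOH and 553.2, 427.1 and 381.9 with Dox in JUN cells. No neighbouring groups overlapped, the order being that of CXCL1. IL1B was at 29.7 ± 3.93 and 49.3 ± 3.34 CPM in vector cells and 901.3 ± 138.4 and 1044 ± 27.5 in JUN cells, and rose by 4.92 with JUN without induction (log2, SE 0.15, edgeR adjusted p 4.54e-11). TNF had at most 4 counts in any library and IL17C none. Of 12 inducers 5 passed the filter. Induction in vector cells called 4 higher and none lower (15.6% and 14.4% of all genes), and JUN without induction 3 higher and 2 lower (20.1% and 18.9%), the latter being IL6 (log2 -1.91, edgeR adjusted p 0.00166) and IL18 (log2 -0.74, edgeR adjusted p 0.000712). Induction in JUN cells called 3 and none (11.2% and 10.3%), and JUN with induction 2 and 1 (18.4% and 17.2%). IL6 was at 1.82 ± 0.819 and 2.39 ± 0.680 CPM in vector cells and 0.490 ± 0.0977 and 3.96 ± 1.01 in JUN cells. JUN with induction did not call it (log2 0.72, edgeR adjusted p 0.0746). IL6 rose 7.99-fold with induction in JUN cells (edgeR adjusted p 4.55e-05). Its interaction was called (log2 2.63, edgeR adjusted p 0.0151), except without JUN EtOH replicate 2 (0.0628).

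**Figure D5:**
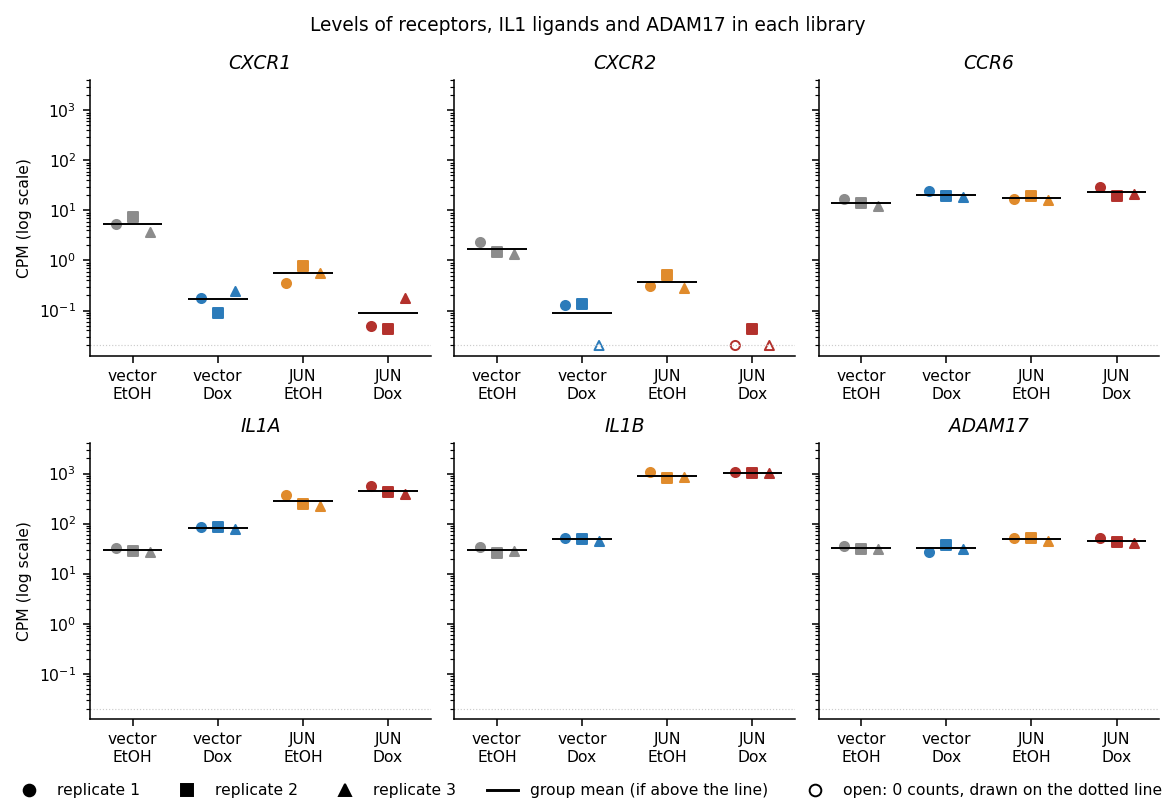
Level in each of the 12 libraries, in CPM on a log axis, of the receptors CXCR1, CXCR2 and CCR6, the inducers IL1A and IL1B and the sheddase ADAM17, drawn as for the chemokines. CXCR1 and CXCR2 are highest in vector EtOH and lowest in JUN Dox, and IL1A and IL1B are lowest in vector EtOH and highest in JUN Dox.

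Of 12 genes of the NF-kappaB pathway, all of which passed the filter, JUN without induction called 7 higher and none lower (median log2 0.36), where 20.1% and 18.9% of all genes were called so. JUN with induction called 7 higher and 2 lower (median 0.50, 18.4% and 17.2% of all genes), the latter being the inhibitors NFKBIB (log2 -0.47, edgeR adjusted p 0.0309) and NFKBIE (-0.56, 0.00478). The inhibitor NFKBIA, named after its values were seen, was called higher with JUN under induction (log2 0.67, edgeR adjusted p 0.000255) and without it (0.37, 0.0134). Induction in vector cells called 4 higher and 2 lower (median 0.05, 15.6% and 14.4%), and induction in JUN cells 1 and 3 (median -0.14, 11.2% and 10.3%). The subunit RELA, named after its values were seen, was not called with JUN (log2 0.07, edgeR adjusted p 0.759). NFKBIZ, an atypical inhibitor that is known as a coactivator of inflammatory genes, had 6.12 ± 0.667 and 10.3 ± 2.71 CPM in vector cells and 55.0 ± 12.1 and 70.9 ± 19.4 in JUN cells, and rose by 3.16 with JUN (log2, edgeR adjusted p 1.54e-07). TNFAIP3, a feedback inhibitor, rose by 3.03 (log2, edgeR adjusted p 2.95e-08). BCL3 fell by 1.97 with induction in vector cells (log2, edgeR adjusted p 5.40e-08).

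Many chemokine mRNAs carry AU-rich words that make them short-lived. The word TTATTTATT occurred 5 times in the longest annotated transcript of CXCL2, 3 times in CXCL1, once in CXCL8 and once in CX3CL1, and not in the other 5 members. The shorter word ATTTA occurred in every member, from 2 times in CXCL16 to 11 in CXCL5 and 14 in CXCL8. Whole transcripts were searched, not the 3′ untranslated region alone. The shares that follow are for TTATTTATT. As many as in CXCL2 were found in 0.298% of 20149 coding genes, as many as in CXCL1 in 1.07%, and at least 1 in 10.1%. Among 7 genes that act on such mRNAs JUN without induction called 3 higher and 3 lower (20.1% and 18.9% of all genes). ZC3H12A, an RNase of inflammatory mRNAs, was highest (log2 1.78, edgeR adjusted p 1.25e-06) and ZFP36L2, a decay factor, lowest (log2 -0.80, edgeR adjusted p 0.000606).

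Over the 12 libraries, the genes whose log2 CPM was most like that of a member were sought among 11398 genes that averaged 5 CPM or more. For CXCL8 these were IL1B (Pearson r 0.997), NFKBIZ (0.993) and CSF3 (0.992), and for CXCL3 NFKBIZ (0.995), NDRG2 (0.991) and TNFAIP3 (0.990). CXCL1 and CCL20 had the same 3, MREG (0.993 and 0.988), YIPF5 (0.991 and 0.988) and IL1A (0.990 and 0.987). CXCL2 was nearest to CSF3 (0.988), SERPINB2 (0.988) and PRSS23 (0.987), CXCL5 to MMP14 (0.992), BMAL2 (0.990) and IL24 (0.990), and CXCL16 to HOXA10 (0.971), HOXA10-AS (0.969) and MANEAL (0.966). The 12 points fall into 4 groups and share their libraries, so these values describe the order of the groups. With the group means removed, CXCL1, CXCL2, CXCL3, CXCL8 and CCL20 still varied together from library to library (r 0.852 to 0.983 between pairs), and CXCL16 ran the other way (r -0.410 to -0.661 with these 5), the points still sharing library and depth.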

How the data were processed

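RNA was sequenced from 12 libraries of MCF10A cells (NEBNext Ultra II RNA kit per the labels, NEBNext Ultra RNA kit per the study's methods). The authors trimmed reads with Cutadapt, aligned them to hg19 with Bowtie2 and deposited raw counts per Entrez gene made with countOverlaps. Per the submitters' processing notes these were cutadapt 4.2 and Bowtie2 2.3.5.1. The annotation and the use of strand were not given in the sources used here, and reads across exon junctions are largely lost. RefSeq gave a symbol for 99.36% of IDs, and positions are GENCODE v44lift37 on GRCh37.

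Counts were fitted with edgeR 4.0.16 (R 4.3.3; filterByExpr with minimum count 10 and total 15, TMM, robust quasi-likelihood, 14775 genes, 12 libraries in 1 fit, biological coefficient of variation 12.5%), which called genes at a Benjamini-Hochberg adjusted p under 0.05 over all genes. Log2 CPM used a prior count of 2. The fit was tested on simulated data with the same spread for every gene, for induction in vector cells only. The alternatives were DESeq2 1.42.0, other size factors, other filters, a GC term, a replicate block, each library left out and only the libraries of a comparison. Named were the members, the manipulated genes, receptors, sheddases and inducers, each list's highest and lowest genes and the most alike genes. The members and lists were chosen with earlier results of these data known. Intervals and floors of counts cover counting error only.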

Additional observations from a re-analysis of the deposited data

How the results depend on the processing

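The 14 member results of the 2 JUN comparisons kept their direction and their call in all 292 alternatives that gave a value. These include CXCL5, with 20 alternatives in each comparison, which passed the filter only through the JUN groups and so had to differ. Over all member results, CXCL5 included, 645 of 684 alternatives changed neither direction nor call. The number of members called in the response to induction in JUN cells (2) became 1 with DESeq2, 0 with no filter on low counts, 4 with the GC term, and 5 with the replicate block, alone or with the GC term. The interaction (0) became 1 with DESeq2 or the GC term and 3 with the replicate block, alone or with the GC term, namely CXCL1 and CCL20 lower and CXCL2 higher (edgeR adjusted p 0.0179, 0.000880 and 0.00896 with the block alone). Whether the replicate numbers pair the libraries is not settled. Of 12 correlations of same-numbered deviations 5 were over 0.1, never all 3 of a comparison, while 7 of 12 libraries were closest to their own number. With 1 library left out, the number of members called ranged from 2 to 4 for induction in vector cells, 1 to 3 for induction in JUN cells and 0 to 1 for the interaction. Without the filter CXCL3 lost its call for induction in both backgrounds (edgeR adjusted p 0.0817 and 0.0958) and CXCL2 its call in JUN cells (0.0545). DESeq2 lost CXCL3 in JUN cells (DESeq2 adjusted p 0.0592). The causes of these losses were not tested. Results reversed only among those not called: CXCL2 with induction in vector cells (log2 -0.34 to 0.38 over the libraries left out, -0.04 without vector EtOH replicate 3), CXCL3 in the interaction (-0.65 to 0.16, 0.02 without JUN EtOH replicate 1) and CXCL16 with induction in JUN cells (-0.17 to 0.15, 0.03 without JUN EtOH replicate 2 and 0.02 without JUN EtOH replicate 3). Per kb of the longest transcript in place of all exons, the JUN Dox levels were 191.6 for CXCL3, 221.6 for CXCL8 and 225.6 for CCL20, which puts CCL20 next after CXCL1. Summed over CXCL1, CXCL2 and CXCL3, JUN with induction changed the level by 3.33 (log2), against a median of 4.40 for the 3 genes taken singly. Over all genes, calls in the interaction (165) became 358 with DESeq2, 274 with the GC term, 251 with the GC term and replicate block, and 97 to 242 with 1 library left out. Those for JUN with induction (5267) became 3439 with only its own libraries, those for JUN without induction (5766) became 3823 without JUN EtOH replicate 1, and those for induction in JUN cells (3168) became 2082 without JUN EtOH replicate 2. Depth limits CXCL5, CXCL6 and CX3CL1, which lay at or under 3 counts per library in some or all groups.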
